A study of Ovis aries with 42 samples.

Results

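Switch-like features are sheep gene IDs whose counts fell into a low and a high set of libraries, both in hypothalamus and in pars tuberalis tissue. The difference between the set means was large against the pooled spread within the sets, though a single set could still spread widely. Of 27054 IDs, 135 (0.499%) were of this kind. They were chosen on their measured values. Counts were scaled to the library total (CPM, counts per 1000000), and x = log2(CPM + 0.5) was sorted over the 21 libraries of a tissue. For every division into 3 to 18 low libraries and the rest, the difference between the set means was divided by the pooled spread within the sets plus 0.1. This gives a separation value, and a feature was taken where its best value exceeded 3.5 in each tissue. Over the hypothalamus libraries 581 features passed and over those of the pars tuberalis 630, so the 135 were 23.2% of the former and 21.4% of the latter. The low and high sets are therefore a description and were not tested. They could also lie close together. The step in x from the highest low library to the lowest high one varied widely over the 135. It ran from 0.108 to 7.28 (median 0.774) for hypothalamus libraries and from 0.0149 to 7.63 (median 0.779) for pars tuberalis ones. The tests below concern what the choice did not use, which is whether a feature's state matched between the tissues, how states fell over the phases, and how levels differed between phases and tissues.

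RNA was sequenced from the hypothalamus and the pars tuberalis of adult female Rasa Aragonesa sheep. All were of this breed and no genotype, drug or allele is given for any group. Ewes were in the luteal phase, the follicular phase or anestrus, with 7 libraries for each phase in each tissue, 42 in all. Libraries 1 to 7, 8 to 14 and 15 to 21 were the luteal, follicular and anestrous hypothalamus, and 22 to 28, 29 to 35 and 36 to 42 the same phases of the pars tuberalis. The labels give each library its own number and do not say that libraries came from separate ewes, or which libraries of the tissues came from the same ewe, so p-values measure the spread between these libraries.

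The hypothalamus holds the neurons that release gonadotropin-releasing hormone and so sets the pace of the ovarian cycle. The pars tuberalis is the part of the pituitary around the stalk, rich in melatonin receptors, and passes the length of the night to the hypothalamus. Progesterone is high in the luteal phase, estradiol rises in the follicular phase, and in anestrus ewes do not ovulate. In bulk tissue, fewer cells of a type and less RNA per cell cannot be told apart. The table gives no gene names, and 0 of the 27054 IDs matched the reference table, so features are given by ID, without function, sequence or position, and neither tissue was checked against its marker genes. Reads shared between near-identical copies may have been split in ways the sources do not state, so the level of any such ID is uncertain.

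Library totals ran from 14649356 to 37726207 counts. The hypothalamus mean was 25678100 ± 4424150 and the pars tuberalis mean 23021800 ± 4009830 (SD, n = 21 each). Hypothalamus library 15, which is anestrous, held 33586399 counts and stood apart from its group. Results that moved without it are given with and without it.

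Most switch-like features were off or low in the greater part of the libraries. High sets had a median of 6 of 21 libraries in each tissue. In the hypothalamus 43 features were high in exactly 3 libraries, 84 in 4 to 17 and 8 in 18. These numbers were 31, 95 and 9 in the pars tuberalis. By majority of libraries, 80 were low in both tissues, 32 high in both, and 23 low in one and high in the other. A low set was often silent. All low libraries had 0 counts in 34 features of the hypothalamus, in 39 of the pars tuberalis and in 23 of both. High levels ranged widely, from a mean of 0.191 to 901 CPM over the high libraries of the hypothalamus (median over features 1.97 CPM) and from 0.188 to 1028 CPM in the pars tuberalis (median 2.12 CPM). The 901 CPM was that of ENSOARG00000009995, whose high libraries 16, 17 and 19 held 115, 229 and 67557 counts. It was thus set by library 19, at 2689 CPM. Means under 1 CPM, where a few counts decide the state, made up 47 and 48 of the 135. The high mean was larger in the pars tuberalis than in the hypothalamus in 82 features.

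**Figure D1:**
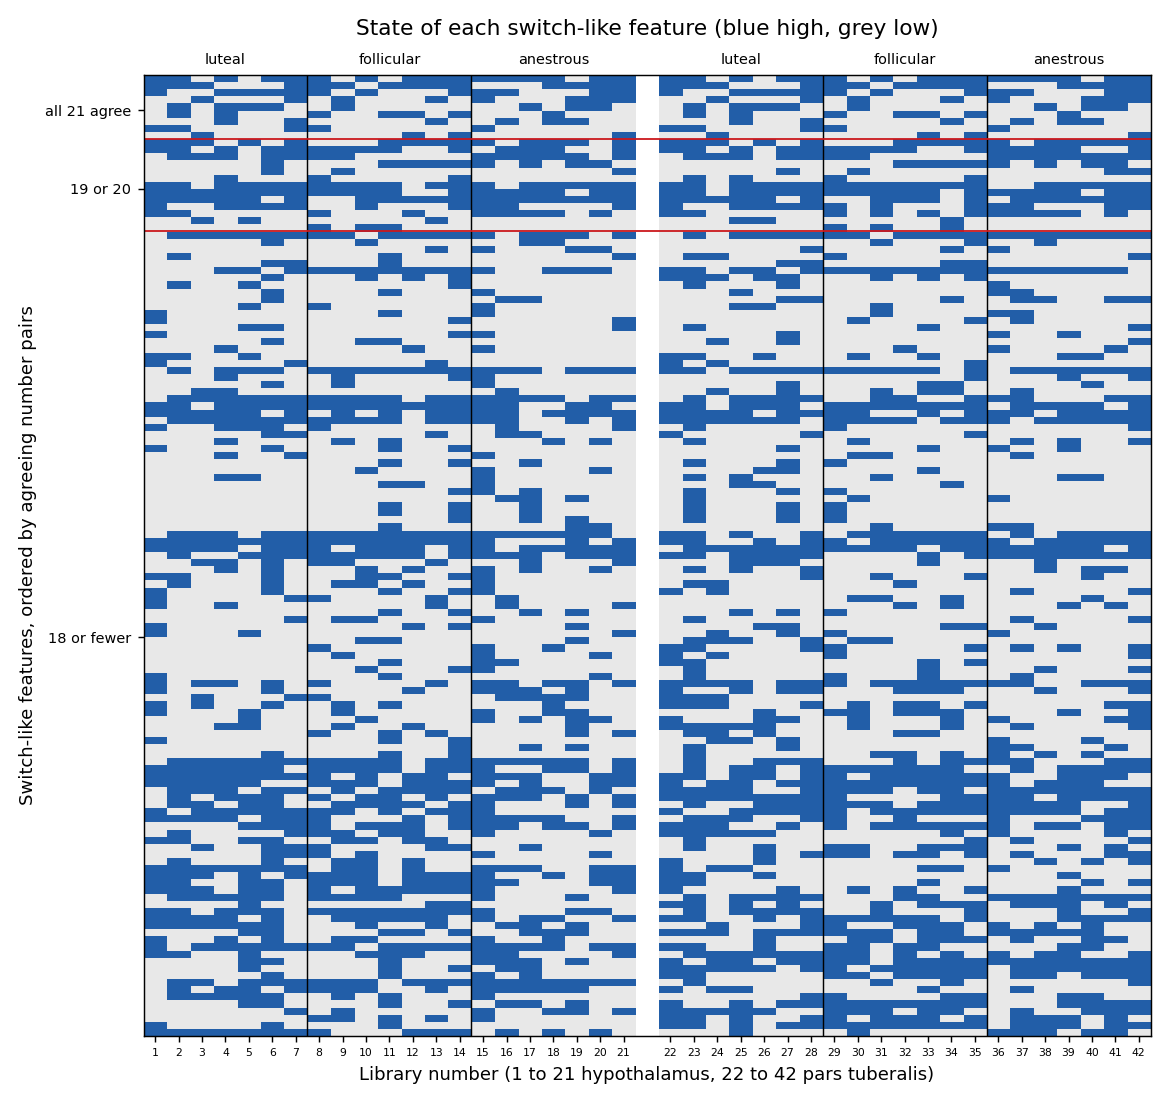
Each row is one of the 135 switch-like features and each column one of the 42 libraries, blue where the library was in the feature's high set and grey where it was in the low set; red lines part the features by how many of the 21 number pairs were in the same state in both tissues. In the 9 rows at the top the left and right blocks are identical, and high states occur in all 3 phases of both tissues.

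The switch with the widest separation in both tissues was ENSOARG00000025385. It had 0 counts in 9 hypothalamus libraries (1, 4, 7, 8, 13, 16, 17, 18 and 20), and in the other 12 it lay at 77.4 CPM at the lowest, 129 at the median and 214 at the highest. It had 0 counts in 6 pars tuberalis libraries (22, 24, 25, 32, 40 and 41) and lay between 98.3 and 184 CPM, median 147, in 15. No library lay in between. Set against a floor of 3 counts over the whole low set, the high set was at least 9450-fold higher in the hypothalamus and at least 6276-fold higher in the pars tuberalis. High libraries came from every phase, 4 luteal, 5 follicular and 3 anestrous in the hypothalamus and 4, 6 and 5 in the pars tuberalis.

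ENSOARG00000016080 was the second in order of separation. In the hypothalamus it lay at 19.7, 25.4, 28.97, 29.6, 20.5, 22.3, 30.02 and 16.6 CPM in libraries 2, 3, 4, 5, 6, 9, 11 and 15. The other 13 libraries had 0 counts. Of the pars tuberalis libraries it was on in 28, 29, 34, 35, 39 and 40, at 36.5, 42.2, 33.1, 33.3, 38.7 and 34.5 CPM, and at 0 counts in 15. The high libraries were mostly luteal in the hypothalamus (5 of 8) and mostly follicular or anestrous in the pars tuberalis (5 of 6).

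ENSOARG00000008927 and ENSOARG00000010963 were also silent in every low library. ENSOARG00000008927 was on in 6 hypothalamus libraries, at 8.81 ± 3.33 CPM (SD, n = 6), and in 10 of the pars tuberalis, at 14.4 ± 1.47 CPM (SD, n = 10). ENSOARG00000010963 was on in 11 and 9 libraries, at 10.99 ± 3.05 (SD, n = 11) and 11.01 ± 3.34 CPM (SD, n = 9). Their high sets, too, held all 3 phases in each tissue. ENSOARG00000016101 differed from these in that its low state was well above 0. It lay at 13.6, 14.5, 15.3 and 14.4 CPM in hypothalamus libraries 1, 3, 7 and 18 against 102 to 204 CPM in the other 17 (median 151). Pars tuberalis levels were 29.4, 44.2 and 30.3 CPM in libraries 24, 34 and 36 against 219 to 300 CPM in 18 (median 246). The low level was thus clearly expressed, and the high level was 10.4-fold above it in the hypothalamus and 6.84-fold in the pars tuberalis (summed counts over summed totals of the sets).

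**Figure D2:**
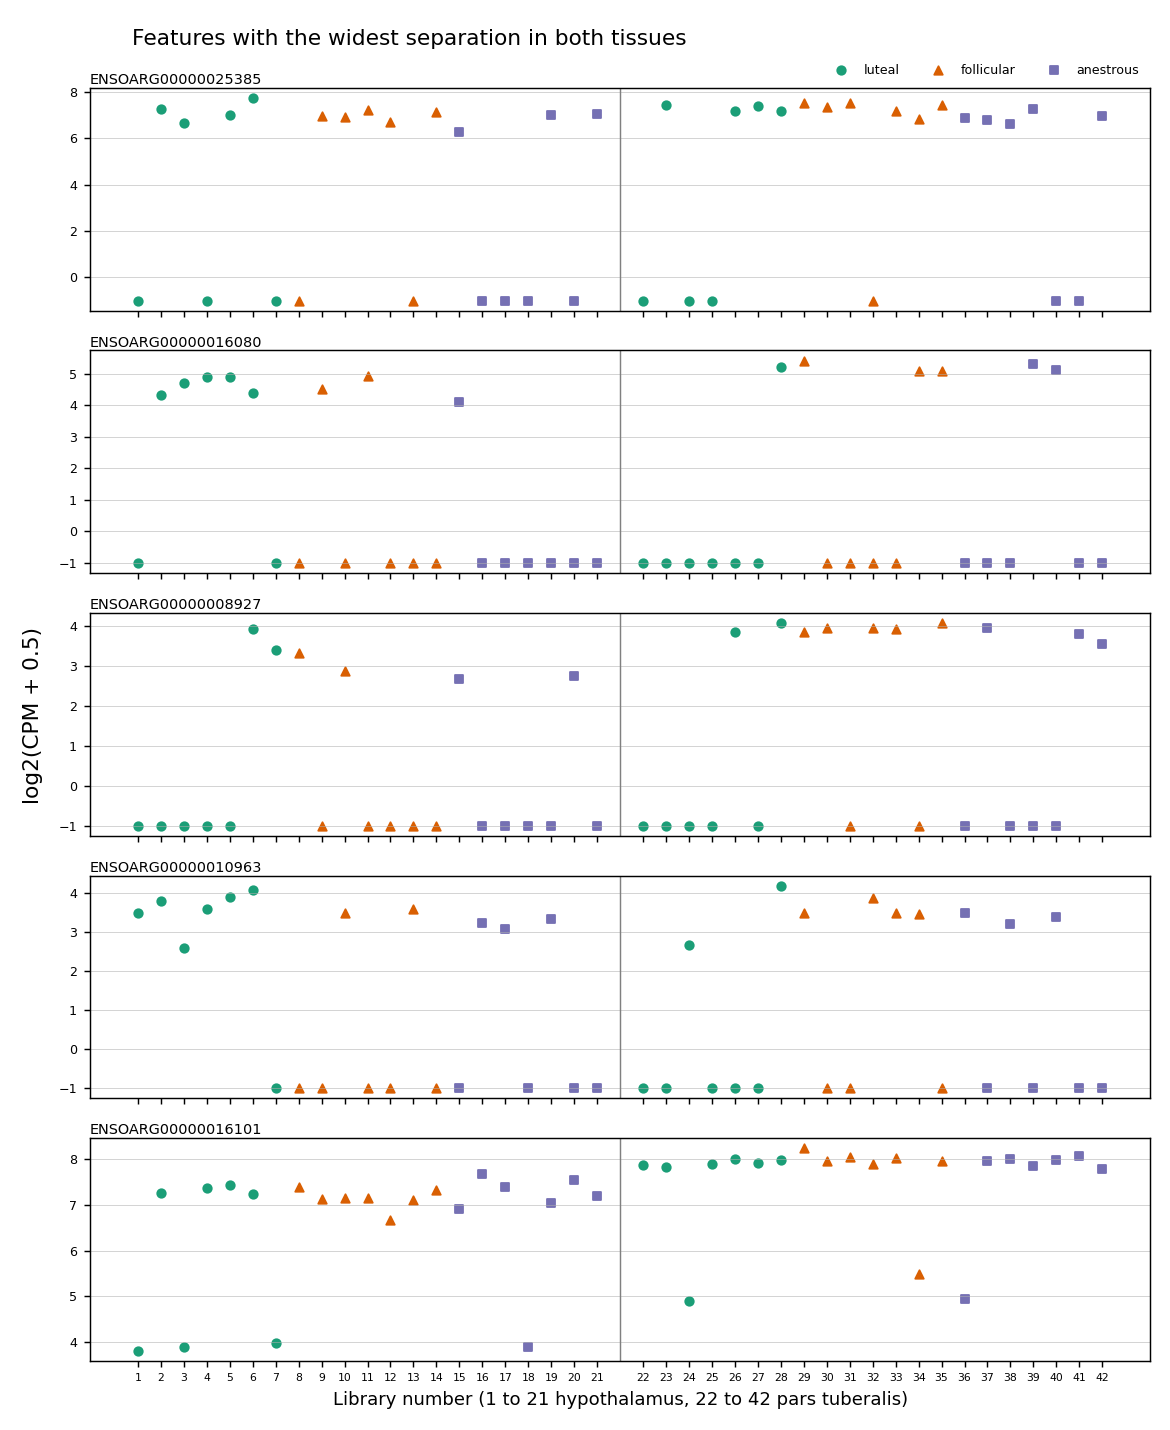
Level of the 5 features with the widest separation in each of the 42 libraries, as log2(CPM + 0.5), where -1 is a count of 0; green circles are luteal, orange triangles follicular and purple squares anestrous libraries. The first 4 features lie either at -1 or in a narrow band, and ENSOARG00000016101 has a low band at 13.6 to 15.3 CPM in the hypothalamus.

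At the other end, the members nearest the threshold were ENSOARG00000010333 (best values 3.92 for hypothalamus and 3.51 for pars tuberalis) and ENSOARG00000009517 (4.06 and 3.51). Just outside lay ENSOARG00000027051 (3.67 and 3.49) and ENSOARG00000020121 (5.57 and 3.49). The smaller of the 2 best values exceeded 4 in 67 features, 5 in 27, 10 in 6 and 20 in 2.

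The next question was whether a feature's state in one tissue went with its state in the other. Hypothalamus library n and pars tuberalis library n + 21 are of the same phase and hold the same place in the labelled order. They are called a number pair here, which does not say that they came from the same ewe. Of the 135 features, 9 were in the same state in all 21 number pairs, against 0.116% of the 19848 features with counts in at least 3 libraries of each tissue. In at least 19 pairs, 22 of the 135 were in the same state, against 1.62% of those features. At the low end, 24 of the 135 matched in at most 10 pairs, against 38.1%. The median was 14 matching pairs for the switch-like features and 12 for all. This number depends in part on the sizes of the high sets: between libraries that are not a number pair, the states of the 135 matched in 60.9% of features, and in number pairs in 68.0%.

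**Figure D3:**
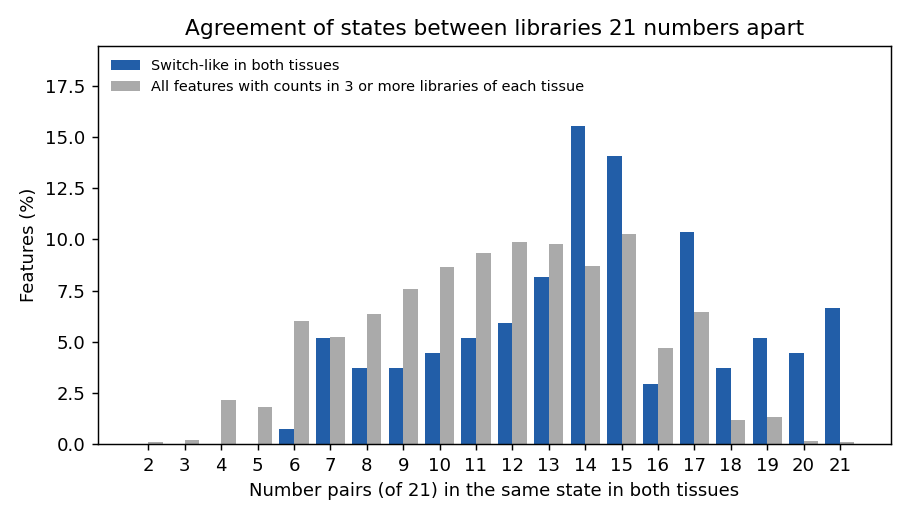
Percentage of features (vertical axis) by the number of number pairs, of 21, in which both tissues were in the same state (horizontal axis), for the 135 switch-like features in blue and for all 19848 features with counts in at least 3 libraries of each tissue in grey. The blue bars at 19, 20 and 21 pairs hold 7, 6 and 9 features.

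Per feature, the match was tested with Fisher's exact test (two-sided) on hypothalamus state against pars tuberalis state over the 21 pairs, with Benjamini-Hochberg adjustment over the 17296 features that had enough counts. The filter kept 106 of the 135. The test called 8 features, 0.0463% of those tested, and 6 of these were switch-like in both tissues. Without the filter it again called 8 features, 6 of them among all 135. At an unadjusted p under 0.05 there were 628 features (3.63%), among them 26 of the 106, and 1 more of the 135 that the filter left out. In 26 of these 27 the states matched, and in ENSOARG00000016080 they were opposed more often than not (unadjusted p = 0.0456, Fisher's exact test, adjusted p = 1). The other 3 features that matched in all 21 pairs had adjusted p-values of 0.144 (ENSOARG00000004956, high in 4 libraries of each tissue), 0.0654 (ENSOARG00000005011, high in 5) and 0.0654 (ENSOARG00000000856, high in 16). Sets of such unequal size cannot give as small a p as even ones.

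Among the 9, ENSOARG00000008077 had the widest separation. It was high in hypothalamus libraries 4, 7, 13, 16, 18 and 19, at 67.9, 66.6, 69.0, 150.5, 70.5 and 79.0 CPM. The other 15 lay between 2.16 and 5.35 CPM, median 3.49. In the pars tuberalis it was high in libraries 25, 28, 34, 37, 39 and 40, the same numbers plus 21, at 88.3, 143.9, 97.0, 226.4, 131 and 103 CPM, against 2.39 to 8.04 CPM (median 5.44) in the other 15. The pair of libraries 16 and 37 was the highest in both tissues. The high state was 23.3-fold above the low state in the hypothalamus and 26.1-fold in the pars tuberalis. High libraries were 2 luteal, 1 follicular and 3 anestrous in each tissue. Its adjusted p was 0.0398 (Fisher's exact test), and the call was lost in 16 of the 21 repeats that left out 1 number pair, with an adjusted p of up to 0.112.

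The 6 called features had different kinds of low state. ENSOARG00000008642 had 0 counts in 7 hypothalamus libraries (4, 5, 6, 10, 15, 16 and 17) and in the 7 pars tuberalis libraries 21 numbers on. In the other 14 it lay at 1.03 to 4.42 CPM (median 2.75) in the hypothalamus and 1.36 to 6.72 CPM (median 2.63) in the pars tuberalis (adjusted p = 0.0212, Fisher's exact test, and up to 0.0883 without 1 number pair). It was thus silent in one set of number pairs and detected in all the others. ENSOARG00000019479 behaved likewise, with at most 1 count in its 14 low libraries of the hypothalamus and at most 2 in those of the pars tuberalis. Its 7 high libraries lay at 1.54 to 5.40 CPM (median 1.82) and 1.58 to 6.86 CPM (median 2.69), and library 14 and its partner 35 were the highest of their tissues (adjusted p = 0.0212, and up to 0.0637 without 1 number pair). ENSOARG00000014493 was high in 12 libraries of each tissue, at 1.44 to 11.8 CPM (median 4.47) in the hypothalamus and 4.16 to 22.7 CPM (median 6.98) in the pars tuberalis. Its low libraries did not exceed 0.279 and 0.345 CPM (adjusted p = 0.0170).

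ENSOARG00000016560 and ENSOARG00000015873 were expressed in both states, and their calls and that of ENSOARG00000014493 held without any 1 number pair, while that of ENSOARG00000014493 was lost with a pseudocount of 1 (adjusted p = 0.166, Fisher's exact test). ENSOARG00000016560 lay at 2.16 to 6.06 CPM (median 4.32) in 13 hypothalamus libraries and at 14.1, 15.99, 17.3, 17.4, 15.9, 14.6, 17.5 and 13.6 CPM in libraries 2, 4, 5, 6, 9, 17, 19 and 20. Its pars tuberalis levels were 7.49 to 12.5 CPM (median 11.2) in 13 libraries and 28.7, 27.5, 33.7, 25.5, 28.8, 30.95, 25.9 and 33.6 CPM in libraries 23, 25, 26, 27, 30, 38, 40 and 41. No library lay between 6.06 and 13.6 CPM in the hypothalamus or between 12.5 and 25.5 CPM in the pars tuberalis. The high state was 3.83-fold above the low one in the hypothalamus and 2.72-fold in the pars tuberalis (adjusted p = 0.0170, Fisher's exact test). ENSOARG00000015873 was high in libraries 3, 7, 9, 13, 15, 19, 20 and 21, at 2.84 to 7.56 CPM (median 4.53) against 0.151 to 0.928 CPM (median 0.519), and in their pars tuberalis partners, at 5.58 to 14.2 CPM (median 6.75) against 0.975 to 2.20 CPM (median 1.51). Of the 8 high libraries of either tissue, 4 were anestrous, 2 luteal and 2 follicular (adjusted p = 0.0170).

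Of the 3 that matched in all pairs without being called, ENSOARG00000005011 had the highest level. It lay at 55.1, 86.2, 54.6, 82.7 and 83.7 CPM in hypothalamus libraries 1, 2, 7, 8 and 15 and at 100.3, 77.4, 114.2, 81.8 and 57.6 CPM in their partners 22, 23, 28, 29 and 36. Low libraries reached 26.2 CPM in the hypothalamus and 37.6 CPM in the pars tuberalis. ENSOARG00000004956 was high in libraries 3, 12, 14 and 21, at 2.27, 2.13, 1.38 and 1.80 CPM, and in 24, 33, 35 and 42, at 1.62, 3.10, 4.05 and 2.24 CPM, with at most 0.246 and 0.480 CPM elsewhere. ENSOARG00000000856 had the reverse shape and was low in only 5 number pairs, at 0.756, 1.58, 2.61, 1.57 and 1.03 CPM in hypothalamus libraries 3, 5, 9, 11 and 19. Their partners 24, 26, 30, 32 and 40 lay at 0.517, 0.711, 0.786, 1.33 and 0.920 CPM.

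**Figure D4:**
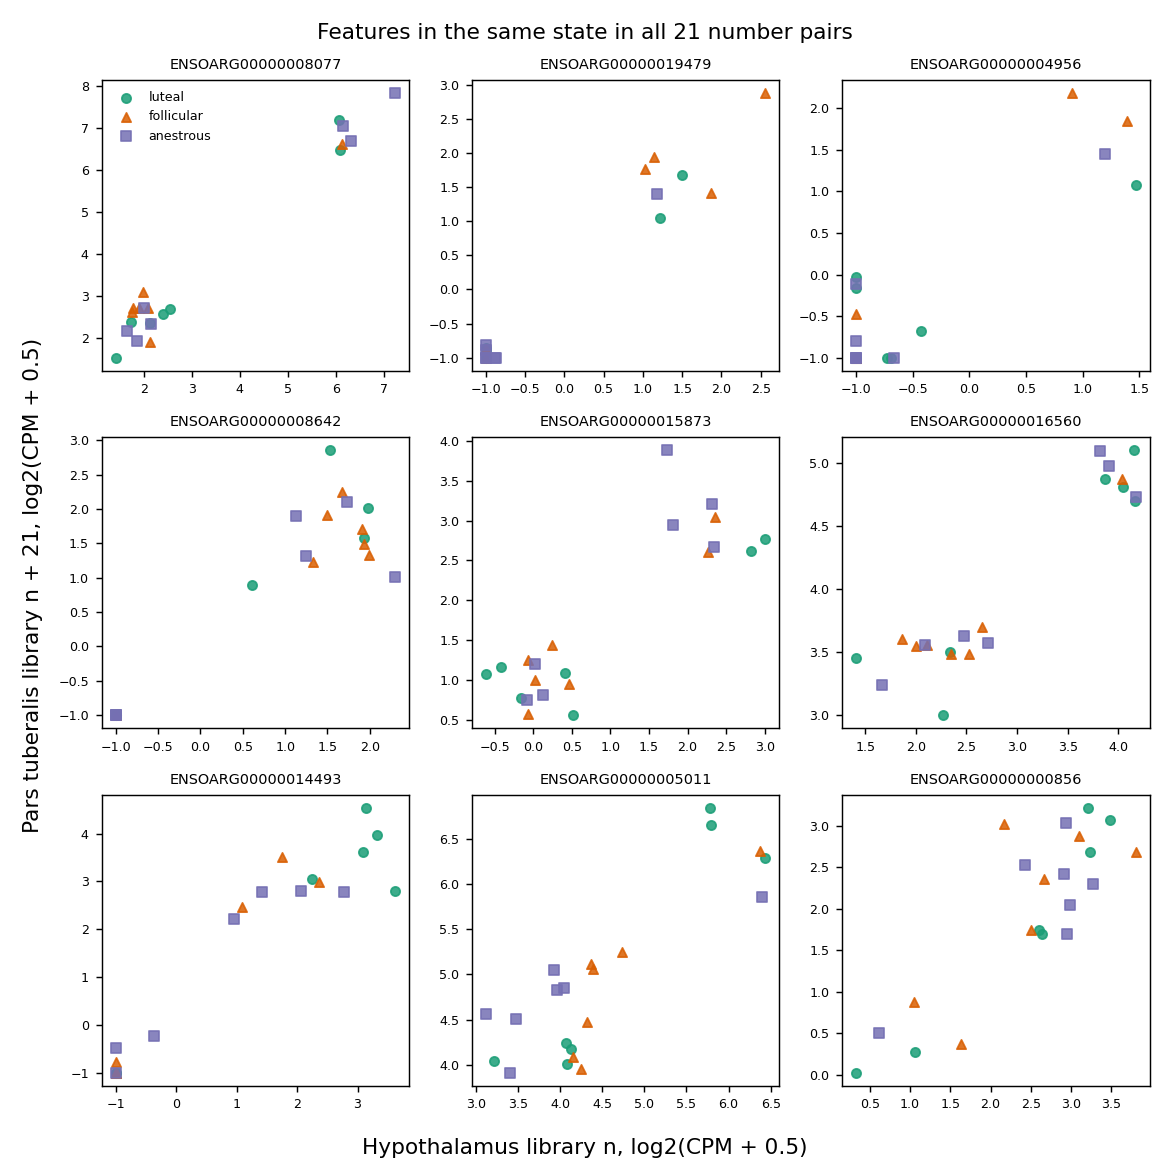
Level in pars tuberalis library n + 21 (vertical axis) against hypothalamus library n (horizontal axis), both as log2(CPM + 0.5), for the 9 features in the same state in all 21 number pairs; each point is a number pair, a green circle if luteal, an orange triangle if follicular and a purple square if anestrous. In each panel the points form a low group at the bottom left and a high group at the top right, and the 6 high points of ENSOARG00000008077 lie above 66 CPM in the hypothalamus.

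The 2 other called features were not switch-like in both tissues. ENSOARG00000002015 (best values 2.21 and 1.83) and ENSOARG00000002649 (3.20 and 4.86) matched in all 21 pairs, high in 10 and 13 libraries of each tissue, with an adjusted p of 0.0170 each (Fisher's exact test). Another 13 switch-like features matched in 19 or 20 pairs. Of the 20 pairs in which they differed, 4 involved hypothalamus library 20 and 3 involved library 15. ENSOARG00000002874 was one of them. In the hypothalamus it was high in 13 libraries (3.32 to 12.6 CPM, median 6.53) and in the pars tuberalis in 14 (14.8 to 47.8 CPM, median 26.7). The pair that differed was library 20, at 1.44 CPM and the highest of the low set, and library 41, at 23.999 CPM.

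Features that matched had the higher levels, and few of them had a silent low set. The 22 features that matched in at least 19 pairs had a median high mean of 5.25 CPM in the hypothalamus and 7.99 CPM in the pars tuberalis, against 1.31 and 1.38 CPM for the others. Of the 68 features high in 4 to 17 libraries of both tissues, 15 matched in at least 19 pairs. Of the 23 with 0 counts in every low library of both tissues, 1 did, and their median was 12 pairs. The widest switches were among those that did not match. ENSOARG00000025385 was in the same state in 12 of 21 pairs, ENSOARG00000008927 in 11, ENSOARG00000010963 in 9, ENSOARG00000016080 in 7 and ENSOARG00000016101 in 16, each with an adjusted p of 1 (Fisher's exact test).

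The fewest matching pairs, 6, were found for ENSOARG00000011579. In the hypothalamus it was high in 14 libraries, at 36.3 to 66.9 CPM (median 55.1), and low in 7, at 4.33 to 11.6 CPM (median 8.27). It was high in 7 pars tuberalis libraries, at 53.8 to 122.7 CPM (median 94.9), and low in 14, at 4.39 to 23.5 CPM (median 11.6). All 7 luteal, 4 follicular and 3 anestrous hypothalamus libraries were high, whereas in the pars tuberalis 1, 1 and 5 were, and the feature passed no test of phase. ENSOARG00000014505 matched in 7 pairs, and was on in 6 hypothalamus libraries at 1.80 to 3.69 CPM (median 2.70) and in 14 of the pars tuberalis at 0.840 to 3.25 CPM (median 1.66), with 0 counts in every low library.

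For 11 of the 21 hypothalamus libraries, the library 21 numbers on was the best match over the 135 states among the 21 of the pars tuberalis, and for 10 of the 21 pars tuberalis libraries the reverse held. Ties counted as best: another library matched hypothalamus library 10 and pars tuberalis libraries 30 and 38 equally well. The lowest rank of a partner was 8 and 10 of 21.

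Few features shared their high libraries with another. There were 132 distinct high sets among the 135 features over hypothalamus libraries and 128 over pars tuberalis libraries. When features were joined whose states differed in at most 2 of the 42 libraries, directly or with high and low exchanged, 126 stood alone and 9 fell into 3 families. The largest held ENSOARG00000000556, ENSOARG00000009423, ENSOARG00000010811, ENSOARG00000010191 and ENSOARG00000016880. All 5 were high in pars tuberalis libraries 23, 27 and 29, and 3 of them in hypothalamus libraries 11, 14 and 17. Levels of ENSOARG00000000556 were 3.95, 15.2 and 65.6 CPM in libraries 11, 14 and 17, at most 2.51 CPM in the other 18, and 5.30, 16.7 and 52.3 CPM in libraries 23, 27 and 29. Library 17 was the highest of the hypothalamus for each of the 5 features. The high libraries of the tissues are no number pairs, and the 15 of 21 pairs in which ENSOARG00000000556 was in the same state were all low in both tissues.

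**Figure D5:**
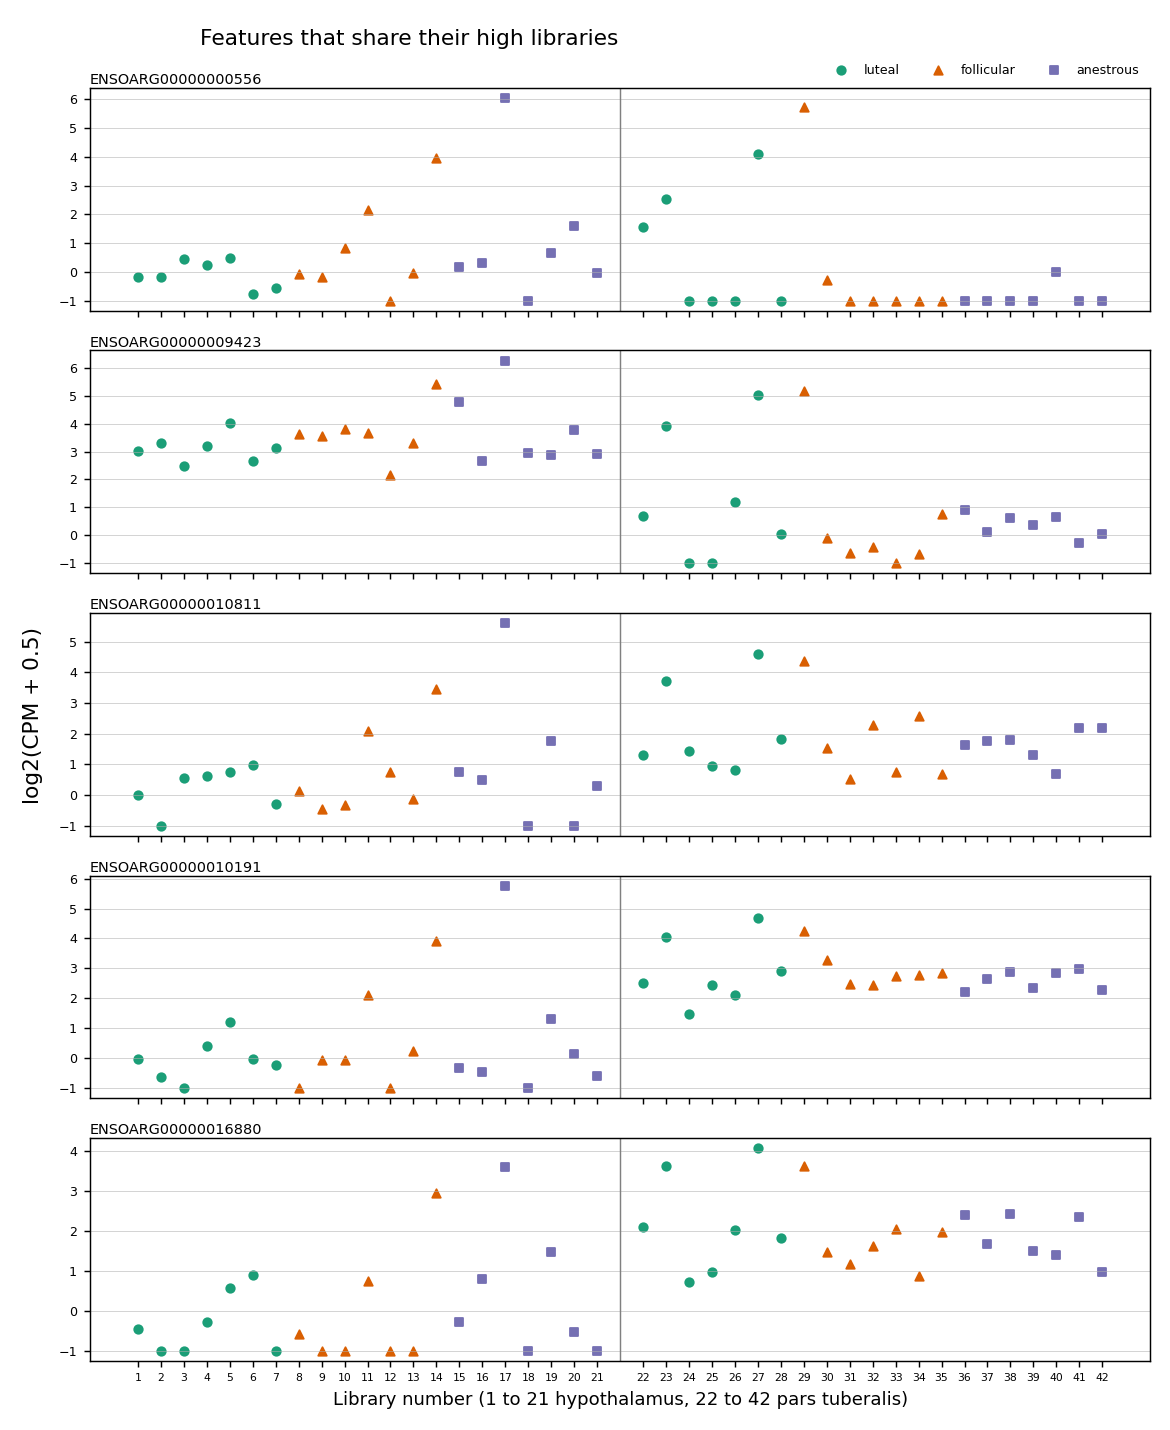
Level of the 5 features that share their high libraries, as log2(CPM + 0.5), in each of the 42 libraries, with phases marked by colour and shape. In every panel libraries 14 and 17 are the highest of the hypothalamus and 23, 27 and 29 the highest of the pars tuberalis, and the other levels differ between features.

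The second family was ENSOARG00000014493, described above, with ENSOARG00000002875, whose states differed from it in libraries 8 and 20. ENSOARG00000002875 lay at 2.92 to 14.2 CPM (median 6.81) in 10 high hypothalamus libraries and at 5.07 to 31.9 CPM (median 9.68) in 12 of the pars tuberalis. The third was a mirrored pair. ENSOARG00000020192 had counts in 9 libraries, and in 8 of these ENSOARG00000026526 had none. ENSOARG00000026526 alone had counts in the remaining 33. Library 21 was the only one with counts for both, at 0.292 CPM for ENSOARG00000026526 and 0.835 CPM for ENSOARG00000020192, and no library lacked both. The levels were low, at 1.09 to 3.29 CPM (median 1.997) in the 18 high hypothalamus libraries of ENSOARG00000026526 and 0.945, 0.553 and 0.835 CPM in libraries 1, 5 and 21 for ENSOARG00000020192.

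Counted over all libraries, high states spread almost evenly over the phases. Of 1074 high states in the hypothalamus, 363 were luteal, 369 follicular and 342 anestrous. Of 1132 in the pars tuberalis, 390, 374 and 368 were. In the hypothalamus, library 15 alone held 77 of the 342 anestrous high states, so the even spread there rested in part on it. The other anestrous libraries of the hypothalamus held 38 to 50 each, against 39 to 69 in luteal and 44 to 64 in follicular ones. The number of the 135 features in the high state ran from 38 to 77 in a hypothalamus library, median 50, and from 39 to 79 in a pars tuberalis library, median 54. Library 15 had the most in the hypothalamus (77) and library 23 in the pars tuberalis (79, with 24136861 counts). In the hypothalamus the mean library total was larger in the high than in the low set for 96 of 135 features, against 71 of 135 in the pars tuberalis. The share over all features was not computed, so these counts cannot be called a trait of the switch-like features. The part of depth in the states was not tested. For the 9 features that matched in all pairs, the high set had the larger mean total in 5 and 4.

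State against phase was tested in each tissue with an exact test of the table of 2 states by 3 phases (Freeman-Halton), adjusted over all features tested. It called 0 features of either tissue, among 16350 for the hypothalamus (lowest adjusted p = 0.311) and 16301 for the pars tuberalis (lowest adjusted p = 1). At an unadjusted p under 0.05 stood 3 of the 74 switch-like features tested in hypothalamus libraries, against 8.38% of all features, and 5 of 80 in pars tuberalis libraries, against 1.36%. In the hypothalamus the lowest p was that of ENSOARG00000025354, with 7 of 7 luteal, 7 of 7 follicular and 3 of 7 anestrous libraries high (exact p = 0.0175, adjusted p = 0.507). Its 17 high libraries lay at 0.624 to 2.98 CPM (median 1.42), and the 4 low ones, 16, 17, 18 and 20, had 0 counts. ENSOARG00000014184 was high in 6 luteal, 5 follicular and 1 anestrous library, the last being library 15 (exact p = 0.0419, adjusted p = 0.511). Of pars tuberalis libraries, ENSOARG00000012658 was high in 6, 2 and 7 (exact p = 0.0166, adjusted p = 1). ENSOARG00000002874 was high in 5, 2 and 7 (exact p = 0.0253, adjusted p = 1), and in the hypothalamus in 5, 2 and 6. None of these 4 passed the adjustment. Without library 15, the same test called 363 features in the hypothalamus, 0 of them switch-like in both tissues.

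Phase differences in level were tested with edgeR's quasi-likelihood test in each tissue. In no comparison did it call any of the 74 switch-like features tested in the hypothalamus, any of the 80 of the pars tuberalis, or any other feature. DESeq2 made 71 calls over the 3 hypothalamus comparisons and 14 over those of the pars tuberalis, none of them of a feature switch-like in both tissues. At an unadjusted p under 0.05, edgeR gave 10 of the 74 for luteal against anestrous hypothalamus (4.44% of all features), 3 for follicular against anestrous (10.3%) and 1 for luteal against follicular (1.14%). For the same comparisons of the pars tuberalis it gave 6 (3.23%), 4 (6.47%) and 5 (8.47%) of the 80. Standard errors were wide, with a median over the switch-like features of 0.88 (log2) in hypothalamus luteal against anestrous and of 0.83 in the same comparison of the pars tuberalis. ENSOARG00000012658 had the lowest adjusted p in the pars tuberalis. It lay at 21.4 ± 9.57 CPM in luteal, 8.01 ± 7.33 in follicular and 19.2 ± 7.97 in anestrous libraries (SD, n = 7 each), with a luteal minus follicular log2 fold change of 1.52 ± 0.45 SE (edgeR adjusted p = 0.469). Luteal libraries ran from 2.39 to 29.9 CPM and follicular ones from 2.70 to 21.9 CPM, so the phases overlapped.

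Follicular against anestrous hypothalamus depended on library 15. In ENSOARG00000015494 the follicular libraries lay at 177.6 ± 32.3 CPM and the anestrous ones at 73.8 ± 85.5 CPM (SD, n = 7 each; log2 fold change 1.297 ± 0.478 SE, edgeR adjusted p = 0.434). Without library 15, which lay at 254.8 CPM, the anestrous mean was 43.6 ± 33.5 CPM (SD, n = 6), the log2 fold change 1.75 ± 0.47 SE and the edgeR adjusted p 0.0391. Follicular libraries ran from 125.5 to 225.6 CPM, above the other 6 anestrous libraries. ENSOARG00000014184 lay at 0.597 ± 0.526 CPM in the follicular phase (SD, n = 7) and had 0 counts in the 6 anestrous libraries left, with library 15 at 1.46 CPM (edgeR adjusted p = 0.0372 without library 15). These 2 of the 78 switch-like features tested were called without it, among 890 features in all (5.42% of those tested), and none with it. In the pars tuberalis, ENSOARG00000025266 was high in 3 luteal, 0 follicular and 3 anestrous libraries (64.4 to 92.2 CPM, median 84.1, against 1.48 to 7.14 CPM, median 4.28), with a follicular minus anestrous log2 fold change of -3.25 ± 0.96 SE (edgeR adjusted p = 0.702).

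Levels differed between the tissues in 46 of the 106 features tested (edgeR quasi-likelihood test on all 42 libraries, adjusted p under 0.05). Of the 106, 28 were higher in the pars tuberalis, against 35.6% of all features, and 18 were higher in the hypothalamus, against 39.4%. The other 60 were not called. The median size of the log2 fold change, without regard to sign, was 0.99 for the 106 and 0.66 for all features. Some of these sizes were unstable. For ENSOARG00000016080 the log2 fold change was 0.356 ± 0.997 SE, and it ran from -2.89 to 3.18 when 1 library was left out. That of ENSOARG00000003449 stayed between -8.76 and -7.79. Of the 9 features that matched in all pairs, 1 was called higher in the pars tuberalis and 1 in the hypothalamus. With number pairs as a replicate block, ENSOARG00000014493, ENSOARG00000008077, ENSOARG00000015873 and ENSOARG00000005011 were also called, with log2 fold changes of 0.82, 0.39, 1.005 and 0.31 towards the pars tuberalis. ENSOARG00000016560 lay at 17.9 ± 9.48 CPM in the pars tuberalis and 8.62 ± 5.91 CPM in the hypothalamus (SD, n = 21 each; log2 fold change 0.95 ± 0.26 SE, edgeR adjusted p = 0.00127). ENSOARG00000000856 was lower there, at 4.23 ± 2.63 against 6.03 ± 3.33 CPM (SD, n = 21 each; edgeR log2 fold change -0.73 ± 0.30 SE, adjusted p = 0.0290), and this call was lost in 5 of the fits that left out 1 library.

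Among the largest tissue differences, ENSOARG00000003449 was nearly confined to the hypothalamus. It lay there at 1.503 to 5.41 CPM in 15 libraries and at 17.9, 10.2, 10.3, 9.63, 16.2 and 12.3 CPM in libraries 2, 6, 9, 10, 12 and 15. In the pars tuberalis it had counts in 3 libraries alone, 23, 24 and 32, at 0.373, 0.323 and 0.197 CPM, and the pars tuberalis minus hypothalamus log2 fold change was -7.94 ± 0.53 SE (edgeR adjusted p = 3.74e-15). Its state was thus a matter of level in the hypothalamus and of a few counts in the pars tuberalis. ENSOARG00000002395 was also higher in the hypothalamus, at 18.4 ± 15.9 against 0.818 ± 1.41 CPM (SD, n = 21 each; log2 fold change -5.19 ± 0.59 SE, edgeR adjusted p = 4.04e-10).

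ENSOARG00000025989 was higher in the pars tuberalis, at 46.5 ± 15.9 CPM against 0.783 ± 1.63 CPM (SD, n = 21 each; log2 fold change 5.80 ± 0.57 SE, edgeR adjusted p = 9.79e-12). All 21 pars tuberalis libraries lay above all 21 of the hypothalamus. Even its low set of the pars tuberalis, 16.4, 19.7 and 17.2 CPM in libraries 27, 30 and 36, lay above the hypothalamus maximum of 6.65 CPM. ENSOARG00000012457 had a log2 fold change of 5.44 ± 1.01 SE (edgeR adjusted p = 8.13e-06), but its pars tuberalis level was that of 3 libraries, 42 at 185.3 CPM, 23 at 54.2 CPM and 29 at 31.1 CPM. The other 18 lay at 0 to 4.94 CPM, median 0.483, and the hypothalamus libraries at 0 to 1.502 CPM, so the tissues overlapped outside those 3.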

How the data were processed

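The authors deposited raw read counts, whole numbers per sheep gene ID and library. The submitters' processing notes list, without role or order, R 3.5.1 and DESeq2, the assembler StringTie 1.3.5, the aligner HISAT2 2.1.0, and Trimmomatic 0.38, SAMtools 1.7 and FastQC 0.11.5. Genome build, annotation and strand: not given in the sources used here. Columns were mapped by the number, tissue and phase in their names, and 0 were of no sample. Per the labels' protocols, RNA with an integrity number above 7 was used.

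Set membership, states and CPM were computed in Python 3.11.15 with a pseudocount of 0.5 CPM. Each ID's best division gave its states in every feature, member or not. Differences in level were fitted in R 4.3.3 with edgeR 4.0.16 (TMM, filterByExpr with a minimum count of 10, robust quasi-likelihood F test, Benjamini-Hochberg over all features, threshold 0.05), with 1 fit per tissue for phases and 1 fit of all 42 libraries for tissues. SE is the fold change divided by the root of F. The common biological coefficient of variation was 43.3% in the hypothalamus, 31.9% in the pars tuberalis and 39.9% over both. The tests were checked on simulated data. DESeq2 1.42.0 was an alternative, beside other pseudocounts, thresholds, scalings and filters, a replicate block and leaving out each library or number pair.

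Named features are the first 5 and last 2 by the smaller best value, the first of the 6 largest families, the 3 with the fewest and 2 with the most matching pairs, the 2 largest tissue differences in either direction and the 2 lowest p-values of state by phase in each tissue. The other features that matched in all 21 pairs, the other family members, ENSOARG00000015494, ENSOARG00000025266 and the 2 called features that are no members were added after their values were seen. So was ENSOARG00000009995. Members and lists were chosen with earlier results of these data known. The gene lists and cell type markers could not be used, because 0 IDs matched the reference table (ARS-UI_Ramb_v3.0, 35057 genes).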

Additional observations from a re-analysis of the deposited data

Results flagged for a closer look

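In each group of 7 libraries, the total count, the number of switch-like features in the high state and the percentage of them in the same state as the library 21 numbers away were screened for a library far from its group. The screen covered 18 groups of values and found 3, where chance gives about 1 in 20 groups. The percentage in the same state is equal for both libraries of a number pair. Its groups therefore hold the same values in both tissues, and the 18 are not all separate. Hypothalamus anestrous library 15 was far above its group in the number of switch-like features in the high state, 77 of 135, and in its total of 33586400 counts. Pars tuberalis anestrous library 36 was far below its group in total, at 14649400 counts. Values of single switch-like features were not screened, since their choice fixes 2 separated sets: 53 of 168 groups of the 28 named features would have been found.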

How the results depend on the processing

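The number of switch-like features rested on the pseudocount and the threshold: 73 with a pseudocount of 1 (70 of the 135), 1394 with 0.1 (123 of the 135), 418 with a threshold of 3 and 67 with 4. Scaling by TMM gave 137 features, 108 of them among the 135, and leaving out 1 library gave 123 to 141. The match between tissues was called in 3 to 11 features when 1 number pair was left out, 3 to 8 of them switch-like, with 3 of each without libraries 16 and 37. ENSOARG00000008077 lost its call in most of these fits (adjusted p 0.0406 to 0.112, Fisher's exact test), and ENSOARG00000014493 with a pseudocount of 1 (adjusted p 0.166). Leaving out 1 library gave 0 to 363 features for state by phase in the hypothalamus and 0 to 890 for its phase differences, 0 to 2 of them switch-like, the highest counts without library 15. In the pars tuberalis both stayed at 0. DESeq2 made 71 phase calls in hypothalamus libraries and 14 in pars tuberalis ones. The tissue difference was called in 12902 to 13100 features without 1 library, 43 to 51 of them switch-like. With number pairs as a replicate block it was called in 13100 features and 51 switch-like ones, of which 41 were also called without the block and 10 were not. Another 5 were called only without it. No paired analysis was possible within a tissue because the labels give each library its own number and the phases share none. No call of the 28 named features changed direction in these settings. For the other switch-like features, direction was compared only between the tissue fits with and without the block. Features with a high mean under 1 CPM rest on few counts, and intervals for them were not computed.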
